A study of Populus alba x Populus glandulosa with 12 samples.

Results

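The genes described here are those that build, break down and move sucrose, starch and hexoses, studied in leaves of hybrid poplar (*Populus alba* × *P. glandulosa*). They were taken by words in the Arabidopsis description that the expression table pairs with each poplar gene: sucrose, starch, amylase, invertase, sugar transport, SWEET, Nodulin MtN3 or hexose. Another 54 genes with these words were left out because their description also names an inhibitor, pectin or a kinase. This gave 158 of 34749 genes, of which 126 passed the expression filter (at least 1 TPM in at least 4 libraries) and were tested. TPM is a transcript's expression per length, as a share of the library scaled to the same total in each. RNA sequencing compared leaves of nontransgenic control plants, labelled CK (4 libraries), with leaves of line 2 and line 7 of plants overexpressing PagSUPa, a zinc finger protein (4 libraries each). The overexpression plants are called OE below. The labels give neither leaf age, nor the promoter of the transgene, nor whether libraries of a group came from separate plants, so the p-values measure the spread between libraries, which may be technical.

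Sucrose made in leaf mesophyll is the main sugar that most plants send through the phloem, and starch stored in the chloroplast by day is broken down at night to maltose and glucose. SWEET proteins let sugars flow across membranes along their gradient, whereas sucrose and hexose symporters take up sugar with protons. In importing tissues, invertases and sucrose synthases cleave sucrose, and nucleotide sugars carried into the Golgi are used to make wall polysaccharides. Names and roles below are those of the Arabidopsis gene paired with each poplar gene.

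The deposited table gives TPM only, so sequencing depth is unknown and no counting interval can be given. No row is named SUPERMAN or PagSUPa. As a check of the labels chosen after its values were seen, the gene paired with the related zinc finger protein ZFP11 (Potri.002G041700) was listed at 0 in 3 control libraries and at 0.112 TPM in the other, and lay between 1210 and 1714 TPM in the 8 OE libraries. Correlations of log2(TPM + 1) over tested genes were 0.896 to 0.984 within groups and 0.670 to 0.914 when an OE library was set against a control. Control replicate 1 stood apart from control replicates 3 and 4 (0.936 and 0.934), and control replicate 2 was nearest to replicates 4 and 1 (0.972 and 0.970). The lowest correlation within a group, 0.896, was between replicates 2 and 3 of line 7. Counts are also given without control replicates 1 and 2, a removal chosen with earlier results of these data known. Those fits have fewer controls, so calls can also be lost through lower power. Photosynthesis genes of the mesophyll marked all libraries as leaf, with summed levels of 40894.1 to 49825.3 TPM in controls and 23154.4 to 52547.4 TPM in OE leaves. Of the 6 tested genes of this list, 2 fell in the mean of both OE lines and 0 rose (limma adjusted p under 0.05). The share that fell, 33.3%, lay near the 34.0% of all tested genes. Both falls were in LHCA1 genes, and neither was called without control replicates 1 and 2 (limma adjusted p = 0.0817 and 0.096). The phloem marker genes summed to 434 to 819 TPM in controls and 117 to 458 TPM in OE leaves, and those of the xylem secondary wall to 111 to 208 TPM and 8.79 to 71.8 TPM. The epidermis list held only 4 genes paired with CUT1, of which 1 was tested (Potri.010G125300) and gave nearly all of the sum. The list's sums overlapped, at 254 to 327 TPM in controls and 127 to 417 TPM in OE leaves. In such bulk samples, fewer cells of a type and less RNA per cell cannot be told apart.

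More sugar and starch genes were lower than higher in OE leaves. The mean of the 2 lines was set against the control, as for all calls below unless a line is named. Of the 126 tested, 57 (45.2%) fell and 13 (10.3%) rose in this mean (limma adjusted p under 0.05). Of all 24926 tested genes, 34.0% fell and 22.1% rose. These shares are also the comparison for the counts by role and list below, several of which rest on few tested genes. In either direction, 70 members (55.6%) were called, a share near the 56.1% of all tested genes. Their median log2 fold change was -0.29, beside -0.13 for all tested genes. In line 2 alone, 52 fell and 8 rose (32.4% and 18.8% of all tested genes), and in line 7, 44 fell and 9 rose (24.8% and 18.9%), with both lines set against the same controls. In either direction these were 60 and 53 members (47.6% and 42.1%), beside 51.2% and 43.8% of all tested genes. Summed over all 158 genes, expression was 3288.7 ± 246 TPM in controls and 2816.4 ± 149.6 TPM in OE leaves (SD, n = 4 and n = 8, as for all such pairs below), between 0.266% and 0.362% of the TPM of a library. All 8 OE libraries lay below all controls for 39 of the tested genes and above them for 6, as did 19.1% and 14.6% of all tested genes.

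These counts depended on scaling and on the controls used. After median ratio scaling, which moved the median of all tested genes from -0.13 to 0.02, 41 members were lower and 21 higher, with 27.2% and 30.1% of all tested genes. Of the 57 and 13 genes, 41 and 13 were called the same way. On this scale 37 members were lower and 19 higher in line 2 (24.5% and 27.9% of all tested genes), and 34 and 14 in line 7 (21.8% and 24.6%). Without control replicates 1 and 2, 27 members were lower and 8 higher (14.2% and 15.6% of all tested genes), and 26 and 6 of them were among the 57 and 13. Line 2 then had 29 lower and 6 higher members (14.5% and 13.1% of all tested genes) and line 7 had 16 and 4 (7.84% and 12.3%). Of single libraries, replicate 2 of line 2 and replicate 4 of line 7 each left 8 higher members when taken out. In line 7 against control the 44 lower members became 28 without control replicate 1, 27 without control replicate 2 and 27 without replicate 4 of line 7.

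**Figure D1:**
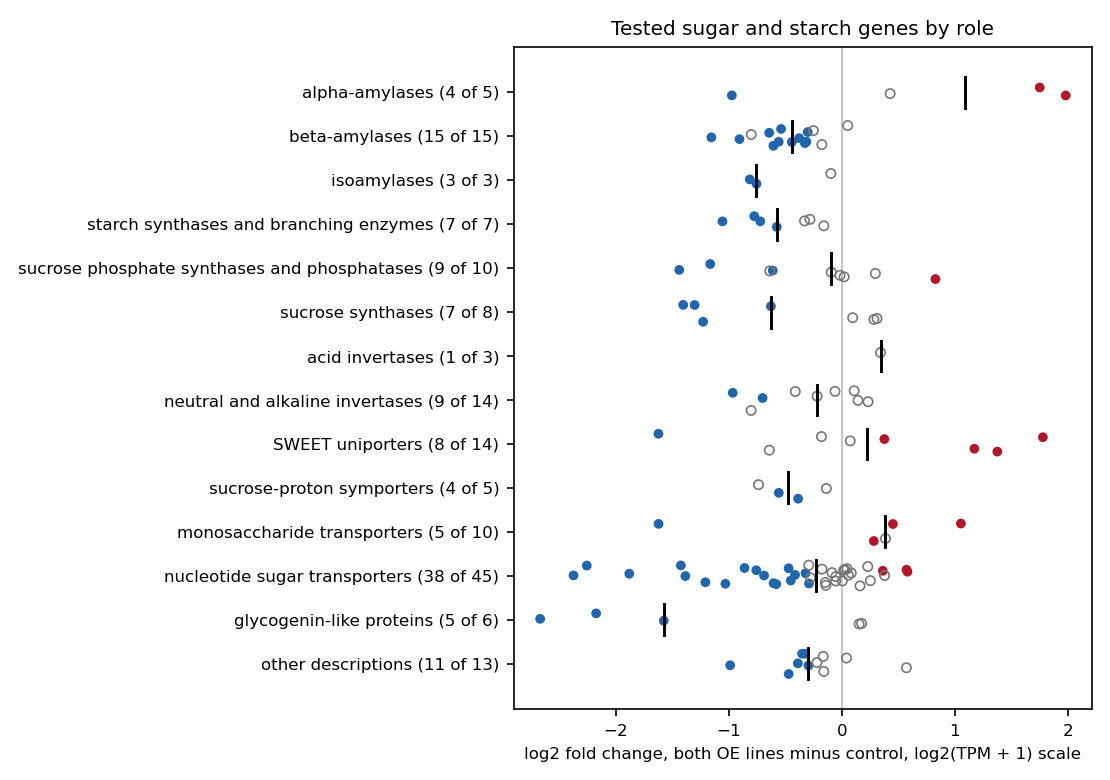
Log2 fold change of each tested member, mean of both OE lines minus control on the log2(TPM + 1) scale, by role, with the numbers tested and listed in brackets. Filled points are genes with an adjusted p under 0.05 (red higher, blue lower), open points missed it, and the black bar is the role's median. The 13 rises are 4 SWEET genes, 3 monosaccharide transporters, 3 nucleotide sugar transporters, 2 alpha-amylases and 1 sucrose phosphate synthase, and the largest falls among glycogenin-like proteins and nucleotide sugar transporters.

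Among starch breakdown genes, calls in both directions were found. Of 4 tested alpha-amylases, which cut inside the starch chain, 2 rose and 1 fell. Of 15 beta-amylases, which release maltose from chain ends, 11 fell and 0 rose. These falls were 73.3% of the beta-amylases, beside 34.0% of all tested genes. After median ratio scaling 5 beta-amylases fell, and 2 without control replicates 1 and 2 (27.2% and 14.2% of all tested genes). AMY1 in Arabidopsis is a secreted alpha-amylase. Its poplar gene (Potri.002G126300) was at 7.44, 12.4, 11.7 and 16.8 TPM in the control libraries, 41.1, 44.7, 81.1 and 46.8 TPM in line 2 and 99.7, 67.9, 21.3 and 31.6 TPM in line 7. Each OE library was above all controls, and replicates 1 and 2 of line 7 were higher than the other libraries of that line (log2 fold change 1.98, SE 0.37, limma adjusted p = 0.00126). AMY2 (Potri.002G014300), an alpha-amylase without a plastid targeting signal, was at 6.67, 8.06, 14.0 and 5.67 TPM in the control libraries, 57.8, 33.5, 27.1 and 14.6 TPM in line 2 and 26.4, 18.004, 33.3 and 48.6 TPM in line 7. These ranges did not overlap with the controls either (log2 fold change 1.75, SE 0.35, limma adjusted p = 0.00184). Both rises kept an adjusted p under 0.05 without control replicates 1 and 2 (0.0318 and 0.0384).

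AMY3 is the alpha-amylase of the chloroplast, and 2 genes are paired with it. Potri.017G093200 fell from 10.3 ± 2.28 TPM (controls) to 4.91 ± 1.80 TPM (OE leaves), by 0.97 on the log2 scale (limma adjusted p = 0.00542, but 0.104 without control replicates 1 and 2). Potri.010G092900 had 13.4 ± 4.71 TPM in controls and 17.9 ± 3.38 TPM in OE leaves (limma adjusted p = 0.0977), and was called higher without control replicate 3 (0.0233) or replicate 2 of line 7 (0.0437). The fifth alpha-amylase gene, a second AMY1 copy, was at or near 0 in all libraries and was not tested.

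Beta-amylases together summed to 1008.2 ± 152 TPM in controls and 674 ± 96.4 TPM in OE leaves. Of the 3 most abundant, 2 fell. BAM1 (Potri.010G062900), a plastid enzyme active in guard cells and under stress, was at 193, 214, 169.6 and 195 TPM in the control libraries, 141, 78.2, 122 and 70.5 TPM in line 2 and 129, 117, 101 and 82.2 TPM in line 7. Every OE library was below every control (log2 fold change -0.91, SE 0.19, limma adjusted p = 0.00261, and 0.0476 without control replicates 1 and 2). The summed level of guard cell markers was lower in the same libraries. Of 5 tested genes, 2 fell and 0 rose, with sums of 96.3 to 136 TPM in controls and 64.3 to 94.8 TPM in OE leaves. The falls were a MYB60 gene (Potri.019G045900) by 2.71 on the log2 scale (limma adjusted p = 2.38e-05) and a FAMA gene (Potri.017G054500) by 0.86 on the log2 scale (limma adjusted p = 0.00209), while the more abundant MYB60 gene Potri.013G067500 had an adjusted p of 0.396. None of the 5 was at 0 in any library, and their part in the BAM1 value was not tested. BAM5 (Potri.017G040800), which lies outside the plastid and in Arabidopsis is found in phloem, was at 107, 277, 211 and 263 TPM in the control libraries, 62.9, 122, 76.9 and 81.6 TPM in line 2 and 96.3, 162, 51.3 and 112 TPM in line 7. Here the ranges overlapped, and control replicate 1 was lower than the other controls (log2 fold change -1.15, SE 0.32, limma adjusted p = 0.0106). The phloem marker genes were lower in the same libraries (16 of 20 tested fell, all of them SEOR1 or APL genes). Their part in the BAM5 value was not tested.

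BAM9 (Potri.008G204200), a beta-amylase without catalytic activity, was the most abundant, with 259 ± 57.3 TPM in controls and 227 ± 32.5 TPM in OE leaves (limma adjusted p = 0.342). One of the genes paired with BAM3, the main maltose-releasing enzyme of leaf chloroplasts at night, fell from 142 ± 6.34 TPM (controls) to 97.6 ± 35.2 TPM (OE leaves), with a limma adjusted p of 0.0495. This gene, Potri.003G085500, was picked after its values were seen, and the call held only without replicate 3 of line 2 or replicate 4 of line 7, with adjusted p from 0.0648 to 0.102 without each of the other 10 libraries. BAM2 (Potri.014G083800) fell by 0.64 and BAM7 (Potri.002G159300), which carries a DNA-binding domain, by 0.56 on the log2 scale (limma adjusted p = 0.00259 and 0.00435). The 11 falls among beta-amylases became 6 without control replicate 1, 5 without control replicate 2 and 7 without replicate 1 of line 7. The median of the role was -0.44, and -0.29 after median ratio scaling.

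Isoamylases cut branch points. ISA1, which trims amylopectin while starch is made, has 2 poplar genes, and both fell. Potri.006G070800 was at 11.9, 10.9, 9.81 and 9.24 TPM in the control libraries, 5.94, 5.53, 5.07 and 5.48 TPM in line 2 and 5.92, 5.86, 6.73 and 5.78 TPM in line 7. The groups were far apart relative to their spread (log2 fold change -0.75, SE 0.09, limma adjusted p = 7.55e-05). Potri.018G132500 fell from 1.84 ± 0.976 TPM (controls) to 0.548 ± 0.0744 TPM (OE leaves) (limma adjusted p = 0.00241). ISA3 (Potri.002G100900), which acts in starch breakdown, had 8.70 ± 1.31 TPM in controls and 8.16 ± 1.76 TPM in OE leaves (limma adjusted p = 0.625).

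Among starch synthases and branching enzymes, 4 of 7 fell and 0 rose, with summed levels of 238 ± 17.5 TPM in controls and 167 ± 25.5 TPM in OE leaves. SS4, which starts new granules in Arabidopsis, has 2 genes. Potri.018G149500 was at 11.2, 9.23, 5.80 and 6.39 TPM in the control libraries, 3.05, 3.28, 2.74 and 3.22 TPM in line 2 and 2.93, 3.17, 4.09 and 3.94 TPM in line 7, with no overlap between groups (log2 fold change -1.06, SE 0.15, limma adjusted p = 0.00029), and the other copy, Potri.001G351800, picked after its values were seen, fell from 17.02 ± 2.85 TPM (controls) to 10.1 ± 2.54 TPM (OE leaves) (limma adjusted p = 0.00932). SS2 (Potri.017G084100) and SS3 (Potri.004G014100), which lengthen amylopectin chains, fell from 82.9 ± 7.91 TPM (controls) to 49.7 ± 14.1 TPM (OE leaves) and from 27.5 ± 3.07 TPM (controls) to 18.3 ± 3.56 TPM (OE leaves) (limma adjusted p = 0.00923 and 0.00877). SS1 (Potri.015G012400) and the branching enzyme SBE2.2 (Potri.005G251000) did not pass, with 24.5 ± 2.31 TPM in controls and 22.4 ± 5.43 TPM in OE leaves and 60.7 ± 15.3 TPM in controls and 49.5 ± 10.3 TPM in OE leaves. Without control replicates 1 and 2, SS4 Potri.018G149500 was the only 1 of the 4 still called (adjusted p = 0.00352), and the others had adjusted p from 0.0548 to 0.14.

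Genes that feed or process starch without the words of the rule were followed in lists by Arabidopsis locus. Of 16 tested genes of starch phosphorylation, disproportionation and maltose export, 8 fell and 0 rose (4 fell without control replicates 1 and 2). Of 11 for ADP-glucose supply and plastid hexose phosphate, 5 fell and 1 rose (4 and 2 after median ratio scaling, 1 and 0 without those controls, 3 falls without control replicate 1 alone, and 0 rises without control replicate 2, 3 or 4 or replicate 2 of line 2). PHS1, the plastid starch phosphorylase, gave the largest fold change of these 2 lists. Its gene Potri.010G160200 was at 28.2, 25.9, 15.6 and 18.7 TPM in the control libraries, 3.03, 1.16, 1.47 and 0.697 TPM in line 2 and 3.24, 6.11, 1.93 and 2.103 TPM in line 7. Every control was above every OE library (log2 fold change -2.83, SE 0.28, limma adjusted p = 2.29e-05). Another PHS1 gene, Potri.008G093901, also fell, from 2.43 to 0.609 TPM (limma adjusted p = 0.000291). A further PHS1 gene, Potri.004G123600, was not called (limma adjusted p = 0.0707, but 0.0426 without replicate 2 of line 2). It had 16.7 ± 2.59 TPM in controls and 12.8 ± 2.69 TPM in OE leaves, where it was the most abundant PHS1 gene. APL3 (Potri.004G157100), a regulatory subunit of the enzyme that makes ADP-glucose, fell from 5.28 ± 0.842 TPM (controls) to 1.11 ± 0.769 TPM (OE leaves) (limma adjusted p = 0.000186). More abundant genes of this enzyme, picked after their values were seen, changed less. APL1 (Potri.008G195100) fell from 126 to 74.3 TPM (limma adjusted p = 0.0137, but 0.0542 without control replicate 1 and 0.179 without control replicates 1 and 2). APS1 (Potri.014G171800), at 180 TPM in controls and 146 TPM in OE leaves, was not called (limma adjusted p = 0.096). PGM1, the plastid phosphoglucomutase, fell in both of its genes (Potri.015G134700 and Potri.012G132500) by 1.19 and 0.45 on the log2 scale (limma adjusted p = 0.00415 and 0.00568). GWD1 (Potri.008G188150), which phosphorylates starch, fell from 1.74 ± 0.639 TPM (controls) to 0.468 ± 0.170 TPM (OE leaves) (limma adjusted p = 0.000611).

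**Figure D2:**
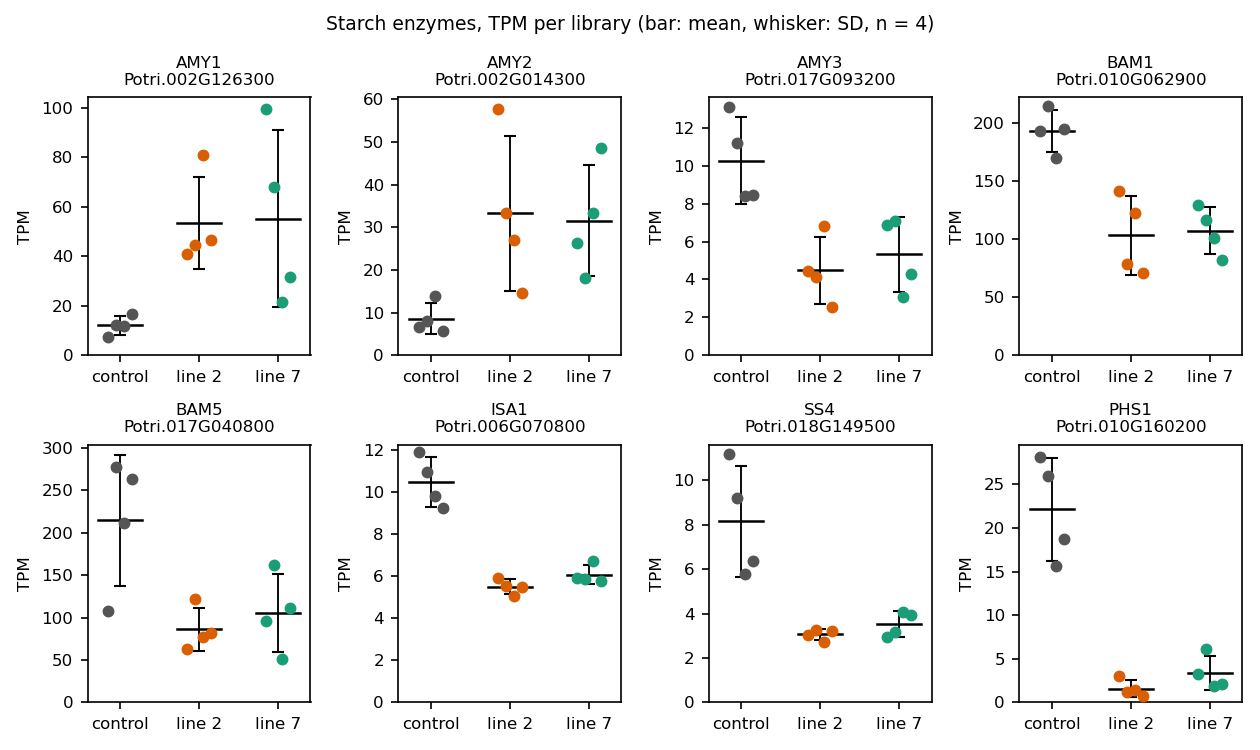
TPM of 8 starch genes in each library of control, line 2 and line 7 (points), with the mean and SD of each group (n = 4) and an axis from 0 in each panel. AMY1 and AMY2 are above all controls in both lines, and AMY3 Potri.017G093200, BAM1, ISA1, SS4 and PHS1 are below them, while BAM5 overlaps.

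Sucrose synthesis genes gave a mixed outcome. Of 9 tested sucrose phosphate synthases and phosphatases, 3 fell and 1 rose (3 and 2 after median ratio scaling, 3 and 0 without control replicates 1 and 2). The 33.3% that fell lay near the 34.0% of all tested genes, and 11.1% rose, beside 22.1%. The median of the role, -0.09, turned to 0.04 after median ratio scaling. SPS1F, a sucrose phosphate synthase, has a pair of expressed genes. Potri.006G064300 was at 19.2, 16.9, 10.9 and 12.6 TPM in the control libraries, 5.42, 6.95, 4.74 and 5.75 TPM in line 2 and 5.78, 7.59, 6.04 and 5.64 TPM in line 7, with every OE library below every control (log2 fold change -1.16, SE 0.15, limma adjusted p = 0.000133). The more abundant copy, Potri.018G124700, had 32.5 ± 3.64 TPM in controls and 33.5 ± 7.36 TPM in OE leaves, and its groups overlapped (limma adjusted p = 0.928). A difference between the copies was not itself tested.

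SPS3F also has a pair of expressed genes. Potri.017G057800 was at 10.3, 9.93, 17.01 and 9.98 TPM in the control libraries, 8.20, 2.24, 4.37 and 1.48 TPM in line 2 and 5.39, 2.88, 3.68 and 3.43 TPM in line 7. Control replicate 3 was the highest control, and OE libraries lay below all controls (log2 fold change -1.44, SE 0.31, limma adjusted p = 0.00254). The other SPS3F gene, Potri.001G317600, had 31.0 ± 11.6 TPM in controls and 19.1 ± 5.26 TPM in OE leaves (limma adjusted p = 0.0561, but 0.0222 without control replicates 1 and 2, 0.0204 without control replicate 1 and 0.0261 without replicate 1 of line 2). Sucrose phosphatase removes the phosphate in the last step. Its most abundant gene, Potri.006G199800, had 26.7 ± 1.499 TPM in controls and 26.6 ± 3.74 TPM in OE leaves (limma adjusted p = 0.91), and the minor copy Potri.008G013300 fell by 0.61 on the log2 scale (limma adjusted p = 0.00368). The single rise was SPS4F (Potri.013G095500), from 0.692 ± 0.258 TPM (controls) to 2.21 ± 1.27 TPM (OE leaves) (limma adjusted p = 0.0395). This low gene was picked after its values were seen, and its call held only without control replicate 3, replicate 4 of line 2 or replicate 2 of line 7, with adjusted p from 0.0526 to 0.102 without each of the other 9 libraries.

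Of 9 tested genes for triose phosphate export and sucrose precursors, 5 fell and 0 rose. After median ratio scaling, and also without control replicates 1 and 2, 2 fell and 1 rose, and 3 fell without control replicate 1, 2 or 4 alone. PGM2 (Potri.008G132500), the cytosolic phosphoglucomutase, was at 44.1, 44.1, 34.3 and 32.2 TPM in the control libraries, 11.9, 10.6, 7.96 and 9.55 TPM in line 2 and 12.8, 16.4, 12.3 and 11.1 TPM in line 7. Its groups were well separated (log2 fold change -1.67, SE 0.14, limma adjusted p = 7.59e-06). Cytosolic fructose bisphosphatase (Potri.005G191400) fell from 77.8 ± 9.04 TPM (controls) to 56.6 ± 11.2 TPM (OE leaves) (limma adjusted p = 0.024), a call lost after median ratio scaling (0.22) and without control replicate 3 or 4 (0.0684 and 0.064).

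Sucrose synthases, which cleave sucrose to UDP-glucose and fructose, fell in 4 of 7 tested genes and rose in 0 (3 and 0 after median ratio scaling, 4 and 1 without control replicates 1 and 2). The share that fell was 57.1% of this small role, beside 34.0% of all tested genes. The falls were the 3 genes paired with SUS6 and the gene paired with SUS5, which in Arabidopsis act in sieve elements. SUS6 Potri.012G037200 was at 4.04, 8.68, 3.99 and 4.58 TPM in the control libraries, 0.987, 1.14, 1.67 and 0.456 TPM in line 2 and 2.39, 3.44, 0.502 and 1.06 TPM in line 7. OE libraries lay below the controls, of which replicate 2 was highest (log2 fold change -1.40, SE 0.29, limma adjusted p = 0.00231). SUS5 (Potri.017G139100) was at 4.83, 11.2, 5.06 and 7.12 TPM in the control libraries, 2.05, 1.68, 3.05 and 0.994 TPM in line 2 and 3.86, 4.14, 1.11 and 1.59 TPM in line 7 and showed the same order, again with control replicate 2 highest (log2 fold change -1.30, SE 0.29, limma adjusted p = 0.00355). SUS6 Potri.015G029100 fell by 1.23 on the log2 scale (limma adjusted p = 0.00324). SUS6 Potri.004G081300 fell from 19.0 ± 6.66 TPM (controls) to 11.8 ± 3.73 TPM (OE leaves) with an adjusted p of 0.0481, which became 0.167 after median ratio scaling. The call was also lost without control replicate 2, 3 or 4, replicate 2 or 4 of line 2, or replicate 1, 2 or 4 of line 7 (adjusted p from 0.0582 to 0.15).

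The phloem marker list of 25 genes holds homologs of APL, SUC2, RTM1, SEOR1, NAKR1 and PP2-A1. Of its 20 tested genes 16 fell and 0 rose (80.0% lower, beside 34.0% of all tested genes). Most of the tested genes are copies paired with SEOR1, and the falls were in SEOR1 and APL genes only. The SUC2 gene Potri.019G085800 and the PP2-A1 genes were not called (limma adjusted p = 0.0592, 0.0548 and 0.0562). RTM1 and NAKR1 genes were under the filter. The count of falls was 6 without control replicate 2 and 4 without control replicates 1 and 2. The list's summed level was also highest in control replicate 2, at 819 TPM. The part of the phloem markers in the SUS5 and SUS6 values was not tested. SUS4 (Potri.006G136700) and SUS3 (Potri.002G202300), the other abundant sucrose synthases, had 52.5 ± 12.6 TPM in controls and 68.2 ± 26.0 TPM in OE leaves, and 18.1 ± 7.00 TPM in controls and 20.9 ± 11.6 TPM in OE leaves (limma adjusted p = 0.362 and 0.867). Summed over the 8 sucrose synthase genes, levels were 119 ± 29.1 TPM in controls and 120.0 ± 29.2 TPM in OE leaves, a difference smaller than the spread between libraries.

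Invertases split sucrose to glucose and fructose. The only expressed acid invertase, cell wall invertase CWINV2 (Potri.006G210600), was at 51.7, 87.2, 69.8 and 110.3 TPM in the control libraries, 58.8, 65.6, 79.7 and 166 TPM in line 2 and 90.5, 124, 141 and 101 TPM in line 7. Its groups overlapped, and replicate 4 of line 2 was the highest library (limma adjusted p = 0.306). Of 9 tested neutral and alkaline invertases, 2 fell and 0 rose (1 rose after median ratio scaling, and 1 without replicate 2 of line 7). The share that fell, 22.2%, was below the 34.0% of all tested genes. INV-E (Potri.008G024100), a chloroplast form, fell from 53.9 ± 8.99 TPM (controls) to 32.6 ± 4.14 TPM (OE leaves) (limma adjusted p = 0.00118), and the cytosolic CINV2 (Potri.013G110800) from 18.2 ± 3.10 TPM (controls) to 8.97 ± 2.40 TPM (OE leaves) (limma adjusted p = 0.00134), both with every OE library below every control. The invertase Potri.008G101500 varied more within groups than between them, from 20.5 to 102 TPM in controls and from 10.6 to 84.8 TPM in OE libraries. Of 11 tested hexokinases and fructokinases, which phosphorylate the products, 4 fell and 2 rose. These shares, 36.4% and 18.2%, lay near the 34.0% and 22.1% of all tested genes. The list's counts were 3 and 3 after median ratio scaling, 1 and 1 without control replicates 1 and 2, and 7 fell without control replicate 3. FRK3 (Potri.004G089300), a plastid fructokinase, fell from 22.1 ± 8.04 TPM (controls) to 8.87 ± 1.96 TPM (OE leaves) (limma adjusted p = 0.000559), whereas the fructokinase Potri.007G129700 rose from 19.9 ± 3.06 TPM (controls) to 43.6 ± 15.8 TPM (OE leaves) (limma adjusted p = 0.00802, and 0.0819 without control replicates 1 and 2). Hexokinase HXK2 (Potri.001G190400) fell from 19.9 ± 4.11 TPM (controls) to 9.28 ± 3.54 TPM (OE leaves) (limma adjusted p = 0.00457, and 0.0861 without those controls). The other rise was HXK1 (Potri.018G088300), picked after its values were seen. It had 21.0 ± 2.31 TPM in controls and 26.0 ± 0.817 TPM in OE leaves, with every OE library above every control. Its limma adjusted p was 0.0101, and 0.00911 without control replicates 1 and 2.

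SWEET proteins were more often higher than lower, in a role of few genes. Of 8 tested, described in the table as Nodulin MtN3 family proteins, 4 rose and 1 fell. These were 50.0% and 12.5%, beside 22.1% and 34.0% of all tested genes. The counts were the same after median ratio scaling, where 30.1% and 27.2% of all tested genes rose and fell. Without control replicates 1 and 2, 2 rose and 0 fell (15.6% and 14.2% of all tested genes), and 2 fell without replicate 2 of line 7. Potri.005G187300 is paired with AT1G21460, known as the plasma membrane glucose carrier SWEET1, and was the most abundant. It was at 24.9, 30.5, 49.4 and 34.98 TPM in the control libraries, 73.5, 94.2, 74.9 and 131 TPM in line 2 and 91.8, 66.8, 52.4 and 60.2 TPM in line 7. All OE libraries exceeded the controls, and replicate 4 of line 2 was highest (log2 fold change 1.17, SE 0.21, limma adjusted p = 0.00109).

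Potri.013G014400 and Potri.013G013800 are both matched to AT4G15920, the tonoplast fructose carrier SWEET17, and moved in opposite directions. Potri.013G014400 was at 3.83, 4.71, 4.13 and 3.61 TPM in the control libraries, 11.04, 13.4, 7.58 and 17.9 TPM in line 2 and 14.9, 15.8, 11.6 and 8.18 TPM in line 7. Its OE libraries were all above the controls (log2 fold change 1.38, SE 0.21, limma adjusted p = 0.000364). Potri.013G013800 was at 33.3, 48.6, 35.02 and 65.4 TPM in the control libraries, 7.51, 11.1, 13.7 and 11.7 TPM in line 2 and 24.0, 49.2, 10.4 and 6.57 TPM in line 7. Line 2 was below all controls, but replicate 2 of line 7 lay within their range (log2 fold change -1.62, SE 0.42, limma adjusted p = 0.00735), and without control replicates 1 and 2 the adjusted p was 0.0541. How reads were divided between copies with similar sequence is uncertain.

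A further pair of SWEET genes was picked after its values were seen. Potri.012G031400, paired with AT5G53190 or SWEET3, was at 1.08, 3.83, 18.7 and 7.05 TPM in the control libraries, 34.0, 27.8, 29.7 and 9.34 TPM in line 2 and 21.9, 12.7, 17.1 and 25.9 TPM in line 7. Its libraries varied widely (log2 fold change 1.78, SE 0.51, limma adjusted p = 0.0126), and the call was lost without control replicates 1 and 2 (adjusted p = 0.238). Potri.001G355500, paired with the tonoplast carrier SWEET2 (AT3G14770), rose from 9.12 ± 1.84 TPM (controls) to 12.1 ± 1.505 TPM (OE leaves) (limma adjusted p = 0.0344). That call was lost without control replicate 1 or 2, replicate 1 or 2 of line 2, or replicate 1, 3 or 4 of line 7 (adjusted p from 0.0538 to 0.13). The more abundant SWEET2 gene, Potri.001G383000, had 19.4 ± 4.31 TPM in controls and 16.8 ± 2.54 TPM in OE leaves (limma adjusted p = 0.336). Among the 6 SWEET genes under the filter, the 2 paired with AT5G50790 reached at most 0.0350 and 0.0380 TPM in controls and 2.101 and 0.766 TPM in OE libraries.

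Sucrose-proton symporters rose in 0 and fell in 2 of 4 tested genes, both of them paired with SUC3, a plasma membrane carrier. Potri.008G148100 fell from 9.19 ± 2.28 TPM (controls) to 5.84 ± 0.821 TPM (OE leaves) and Potri.010G093600 from 5.004 ± 1.04 TPM (controls) to 3.55 ± 0.236 TPM (OE leaves) (limma adjusted p = 0.00741 and 0.0104). Neither was called without control replicates 1 and 2 (0.135 and 0.127). SUC2, the carrier that loads sucrose into the phloem in Arabidopsis, was at 7.70, 12.8, 5.80 and 8.40 TPM in the control libraries, 4.64, 10.2, 2.09 and 3.73 TPM in line 2 and 3.07, 6.82, 4.88 and 4.70 TPM in line 7 in Potri.019G085800. Replicate 2 of each group was its highest library, and the groups overlapped (limma adjusted p = 0.0592). With the replicate number as a block the adjusted p was 0.0122, though the labels do not say whether the numbers pair libraries. It was 0.0105 without replicate 2 of line 2, 0.0463 without replicate 2 of line 7 and 0.0454 without control replicate 3. Over the 12 fits that each left out 1 library it ranged from 0.0105 to 0.188. SUC4 (Potri.002G106900), a tonoplast carrier, had 6.45 ± 1.39 TPM in controls and 5.72 ± 0.767 TPM in OE leaves (limma adjusted p = 0.397).

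Monosaccharide transporters of the STP family bring hexoses into the cell with protons, and 3 of 5 tested rose and 1 fell. The most abundant, STP1 Potri.004G033600, had 146 ± 12.2 TPM in controls and 178 ± 14.1 TPM in OE leaves, a small rise with a limma adjusted p of 0.0321 that was lost without control replicate 1 or 4, replicate 2 of line 2, or replicate 1 or 4 of line 7 (0.0556 to 0.106). The other STP1 gene went down. Potri.011G042100 was at 5.62, 4.68, 9.47 and 7.54 TPM in the control libraries, 3.25, 1.12, 2.95 and 0.396 TPM in line 2 and 1.84, 2.63, 0.806 and 0.531 TPM in line 7, and all OE libraries were below the controls (log2 fold change -1.62, SE 0.33, limma adjusted p = 0.00201). STP7 (Potri.018G113300), a carrier of pentoses, rose from 3.84 ± 1.31 TPM (controls) to 9.45 ± 3.96 TPM (OE leaves) with overlapping ranges (limma adjusted p = 0.0122). The second STP7 gene, Potri.006G189100, rose from 32.1 ± 3.51 TPM (controls) to 45.0 ± 9.35 TPM (OE leaves) (limma adjusted p = 0.0366), a call lost without control replicate 1, 2 or 4, replicate 1, 2 or 4 of line 2, or replicate 3 or 4 of line 7 (0.0501 to 0.102). STP14 (Potri.001G253800), a galactose carrier, had 21.99 ± 3.98 TPM in controls and 30.6 ± 12.3 TPM in OE leaves (limma adjusted p = 0.251). The count of rises was 1 without control replicate 1, control replicate 4, replicate 2 of line 2 or replicate 4 of line 7. Without control replicates 1 and 2, 0 of these genes rose and 1 fell.

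Other sugar carriers are not described with the words of the rule. Of 24 tested tonoplast and other sugar carriers, listed by locus, 10 rose and 6 fell (7 and 4 without control replicates 1 and 2), and the summed level of the 41 listed was 486 to 638 TPM in controls and 894 to 1445.0 TPM in OE leaves. PMT5 (Potri.009G113600), a polyol and monosaccharide carrier of the plasma membrane, was at 89.0, 111, 96.9 and 96.5 TPM in the control libraries, 289, 333, 280.0 and 317 TPM in line 2 and 307, 289.6, 439.5 and 415 TPM in line 7. No OE library came near the controls (log2 fold change 1.74, SE 0.13, limma adjusted p = 4.67e-06). STP5 (Potri.002G095900) rose from 8.92 ± 0.536 TPM (controls) to 37.1 ± 8.87 TPM (OE leaves) (log2 fold change 1.91, SE 0.17, limma adjusted p = 1.13e-05), and STP3 Potri.004G233700 fell from 16.1 ± 3.93 TPM (controls) to 3.05 ± 1.16 TPM (OE leaves) (log2 fold change -2.11, SE 0.23, limma adjusted p = 4.63e-05).

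Another pair of carriers was picked after its values were seen. INT4 (Potri.006G015200), an inositol carrier, rose from 79.5 ± 26.6 TPM (controls) to 288 ± 56.9 TPM (OE leaves) (limma adjusted p = 9.62e-05). The hexose carrier STP13 (Potri.008G151100) rose from 10.4 ± 3.04 TPM (controls) to 52.6 ± 18.4 TPM (OE leaves) (limma adjusted p = 0.000144), and in both genes the OE libraries lay above all controls.

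**Figure D3:**
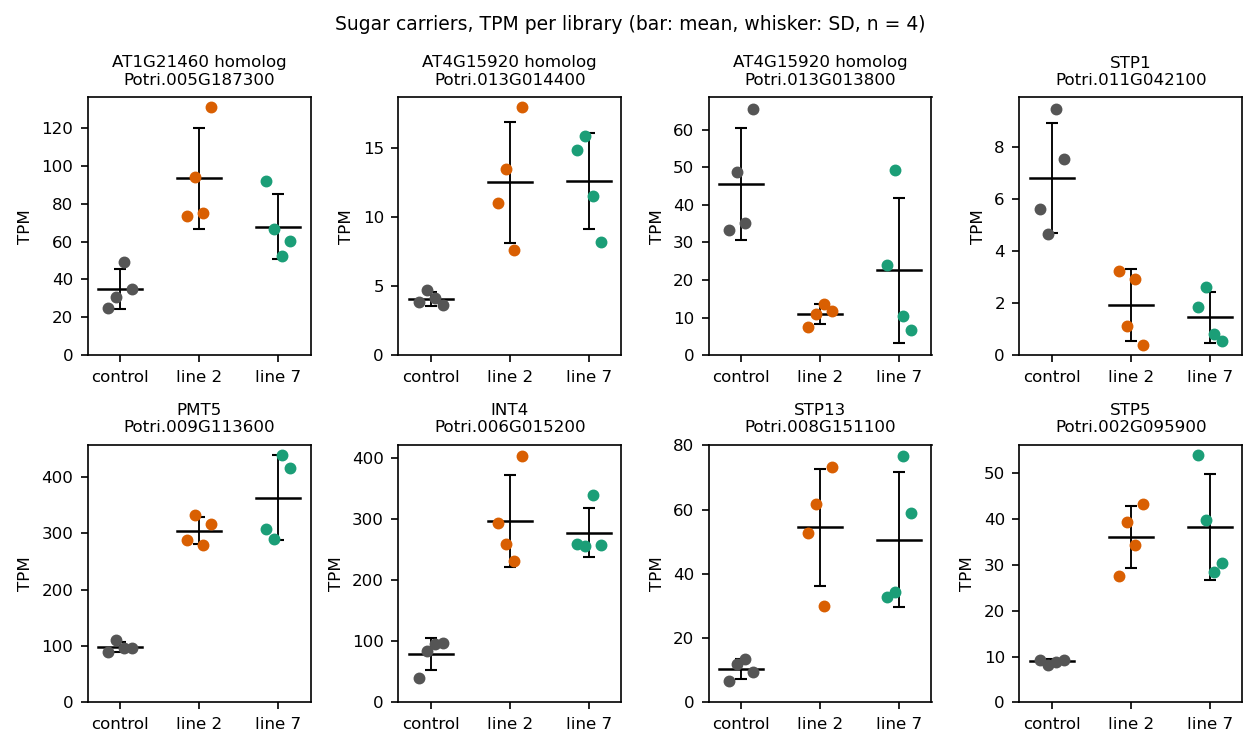
TPM of 8 sugar carriers in each library (points), with the mean and SD of each group (n = 4) and an axis from 0 in each panel. Potri.013G013800 is lower in OE leaves apart from replicate 2 of line 7, STP1 Potri.011G042100 is below all controls, and the other 6 carriers are above the controls in all OE libraries.

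Genes described as nucleotide sugar transporters were the largest role. Such carriers bring activated sugars into the Golgi for wall and glycan synthesis, but the role also holds the plastid carrier Potri.013G071900. In this role 17 of 38 tested fell and 3 rose (12 and 6 after median ratio scaling, 8 and 2 without control replicates 1 and 2). These were 44.7% and 7.89%, beside 34.0% and 22.1% of all tested genes. The gene of smallest p in this role, Potri.009G011100, is paired with AT2G28315, which in Arabidopsis encodes a UDP-xylose transporter. It was at 36.9, 33.1, 24.4 and 28.6 TPM in the control libraries, 13.2, 12.6, 9.65 and 5.51 TPM in line 2 and 5.03, 7.49, 6.64 and 4.39 TPM in line 7. Every OE library was below every control, and line 7 was lower than line 2 in most libraries (log2 fold change -1.88, SE 0.21, limma adjusted p = 5.41e-05). Its second copy, Potri.004G211900, fell from 15.1 ± 4.53 TPM (controls) to 2.63 ± 1.87 TPM (OE leaves) (log2 fold change -2.26, SE 0.31, limma adjusted p = 0.000208). Potri.006G046600, paired with the UDP-uronic acid transporter gene AT5G04160, was at 42.8, 27.8, 23.3 and 23.3 TPM in the control libraries, 4.002, 3.66, 7.04 and 2.19 TPM in line 2 and 10.04, 14.1, 1.55 and 3.23 TPM in line 7. It lay below the controls in all OE libraries and spread widely among them (log2 fold change -2.37, SE 0.43, limma adjusted p = 0.00108). Potri.005G260300, paired with the UDP-rhamnose and UDP-galactose transporter gene AT1G21070, fell from 41.8 ± 8.81 TPM (controls) to 15.4 ± 5.12 TPM (OE leaves) (limma adjusted p = 0.000502).

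None of the 3 most abundant members of this role was called lower. Potri.006G252500 (AT5G25400) had 185 ± 4.12 TPM in controls and 199.8 ± 39.9 TPM in OE leaves (limma adjusted p = 0.661). Potri.013G071900 (AT5G17630), which in Arabidopsis carries xylulose phosphate into plastids, had 60.1 ± 6.11 TPM in controls and 60.9 ± 6.58 TPM in OE leaves (limma adjusted p = 0.904). Potri.018G028900 (AT4G32390) rose from 91.9 ± 5.16 TPM (controls) to 139 ± 18.6 TPM (OE leaves), with all OE libraries above the controls (log2 fold change 0.58, SE 0.12, limma adjusted p = 0.00203).

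Glycogenin-like proteins are described in the table as starch initiation proteins, but GUX1 and GUX2 are known in Arabidopsis as enzymes that put glucuronic acid on the xylan of secondary walls. Of 5 tested genes, 3 fell and 0 rose, and all 3 were GUX1 or GUX2 genes. GUX1 Potri.005G061600 was at 12.8, 9.51, 5.55 and 8.02 TPM in the control libraries, 0.975, 0.417, 0.562 and 0.216 TPM in line 2 and 0.388, 1.42, 0.359 and 0.147 TPM in line 7. Its lowest control was well above its highest OE library (log2 fold change -2.67, SE 0.23, limma adjusted p = 1.07e-05). The second GUX1 gene, Potri.007G107200, fell from 5.92 ± 2.24 TPM (controls) to 0.514 ± 0.396 TPM (OE leaves) (log2 fold change -2.17, SE 0.21, limma adjusted p = 2.17e-05), and GUX2 (Potri.014G029900) from 7.25 ± 0.945 TPM (controls) to 1.81 ± 0.571 TPM (OE leaves) (log2 fold change -1.57, SE 0.14, limma adjusted p = 1.14e-05). All 3 kept an adjusted p under 0.001 without control replicates 1 and 2. GUX3 (Potri.005G187900), which acts on primary wall xylan, and PGSIP6 (Potri.013G049100), which adds a sugar to sphingolipids, had 16.7 ± 1.79 TPM in controls and 19.1 ± 3.42 TPM in OE leaves, and 17.8 ± 2.08 TPM in controls and 19.9 ± 1.83 TPM in OE leaves (limma adjusted p = 0.29 and 0.216). After median ratio scaling both were called higher (0.0338 and 0.00708).

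Secondary wall markers of the xylem fell in the same leaves. Of 7 tested cellulose synthase and IRX9 genes, 6 fell and 0 rose (5 without control replicates 1 and 2), and their summed level did not overlap between control and OE libraries. The share that fell was 85.7%, beside 34.0% of all tested genes. The part of these markers in the GUX and nucleotide sugar transporter values was not tested.

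**Figure D4:**
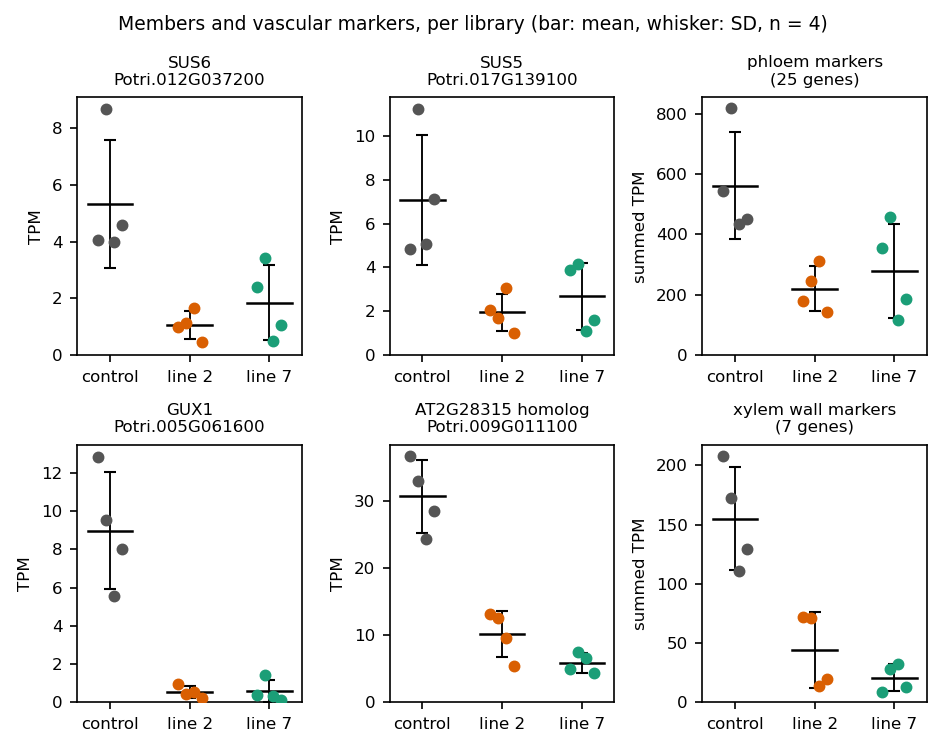
TPM of SUS6, SUS5, GUX1 and the AT2G28315 homolog in each library, beside the summed TPM of 25 phloem and 7 xylem wall marker genes (points, with the mean and SD of each group, n = 4, and axes from 0). Control replicate 2 is highest for SUS6, SUS5 and the phloem sum, and GUX1, the transporter and the xylem sum are lower in all OE libraries than in any control.

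Genes taken in by other words numbered 13, and 6 of the 11 tested fell and 0 rose (3 and 1 after median ratio scaling, 1 and 1 without control replicates 1 and 2, and 1 rose without control replicate 1). Potri.008G089800, described as an arabinanase, levansucrase or invertase, fell from 101 ± 16.2 TPM (controls) to 50.8 ± 10.5 TPM (OE leaves) (log2 fold change -0.99, SE 0.17, limma adjusted p = 0.000745). Others carry the word sucrose only through a yeast name. They are SWI3A (Potri.015G100400) and SWI3C (Potri.005G180800), subunits of chromatin remodelling complexes, which fell by 0.47 and 0.32 on the log2 scale (limma adjusted p = 0.00735 and 0.00538), and neither call held without control replicates 1 and 2. VTE1 (Potri.018G040200), the tocopherol cyclase whose maize mutant fails to export sucrose, had 16.0 ± 1.66 TPM in controls and 16.5 ± 1.34 TPM in OE leaves (limma adjusted p = 0.723). Of 20 tested genes for trehalose phosphate, a sugar signal, and the kinase SnRK1, 9 fell and 1 rose. The falls were 5 after median ratio scaling or without control replicate 2, and 4 without control replicates 1 and 2. The rises were 2 after median ratio scaling or without control replicate 1, and 0 without control replicate 2, 3 or 4 or without control replicates 1 and 2. Trehalose phosphate phosphatase TPPA (Potri.015G126900) fell from 17.99 ± 6.54 TPM (controls) to 2.95 ± 1.60 TPM (OE leaves) and the 2 genes paired with TPS7 from 66.7 ± 10.6 TPM (controls) to 36.4 ± 7.50 TPM (OE leaves) and from 27.3 ± 7.02 TPM (controls) to 11.2 ± 2.87 TPM (OE leaves) (limma adjusted p = 0.000233, 0.001 and 0.000514).

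Line 7 and line 2 did not differ detectably in these genes. Limma called 0 of 24926 genes between the lines (0.00%), 418 had an unadjusted p under 0.05, and 1 of these was a member. This was the transporter Potri.009G011100, at 10.2 ± 3.49 TPM in line 2 and 5.89 ± 1.43 TPM in line 7 (n = 4 each, limma log2 difference -0.66, unadjusted p = 0.0194, adjusted p = 1). GUX2 and the SWEET1 gene Potri.005G187300 followed, with unadjusted p = 0.0532 and 0.0974 (limma adjusted p = 1 and 1).

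The spread within the lines was largest for SUS3 (Potri.002G202300), at an SD of 0.90 on the log2(TPM + 1) scale. This sucrose synthase was at 8.03, 24.1, 19.2 and 20.9 TPM in the control libraries, 14.3, 21.7, 5.89 and 30.7 TPM in line 2 and 9.11, 19.6, 41.5 and 24.7 TPM in line 7, so it varied several-fold within each line. The invertase Potri.008G101500, the transporter Potri.006G046600, the SWEET gene Potri.013G013800 and AMY1 followed, with SDs of 0.88, 0.87, 0.77 and 0.71.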

How the data were processed

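Leaves of 4 control, 4 line 2 and 4 line 7 libraries were profiled. Per the labels' protocols, cDNA was primed with oligo(dT), amplified by PCR and sequenced as DNA nanoballs. The submitters' processing notes name cutadapt, FastQC and Salmon. The authors deposited 1 table of TPM per poplar gene with the paired Arabidopsis locus, name and description, and the genome build is not given in the sources used here. Salmon estimates how reads divide between similar transcripts, which leaves the values of near-identical copies uncertain.

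From this table, log2(TPM + 1) was fitted for all 12 libraries with limma 3.58.1 (empirical Bayes with a trend) in R 4.3.3. A gene was tested if 4 or more libraries had 1 TPM or more. Benjamini-Hochberg adjustment covered the 24926 genes tested, and calls needed an adjusted p under 0.05. Fold changes on the log2(TPM + 1) scale understate the change of low genes. The contrast of both lines was tested on simulated data of 24926 genes, where it recovered 67% of changes of size 1 and 92% of those of size 2 (log2). Only a small share of those genes was changed, evenly up and down, with noise drawn independently for each gene and library. In the data 56.1% of genes were called, so these recoveries do not give the power of the fits reported here.

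The members, the lists of related and marker genes (63 of 85 and 17 of 21 loci matched) and the removal of control replicates 1 and 2 were chosen with earlier results of these data known. The 14 roles were made finer after descriptions and group means had been seen. Named genes were, per role, the 3 of highest mean TPM and up to 3 called members of smallest p with a mean TPM of at least 2. To these came the 3 members of smallest p between the lines, the 5 of largest spread within the lines and up to 3 called genes of smallest p per related list. No libraries were identical. After group means were taken out, same-numbered libraries of different groups correlated from -0.472 to 0.415, above 0.1 in 9 of 12 pairs. Of 12 libraries, 8 correlated best with their own number, while replicate 3 of line 2 and replicate 1 of line 7 reached 0.599. The labels do not say what the numbers share. Whether they pair libraries was left undecided, and the block was run only as an alternative. Alternatives were median ratio scaling, pseudocounts of 0.1 and 5, testing without a filter or above a mean TPM of 5, the replicate number as a block, fits restricted to the groups compared, and leaving out each library.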

Additional observations from a re-analysis of the deposited data

Results flagged for a closer look

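Among 185 group values of named members examined, 7 had 1 library far from the other 3 of its group, by Dixon's test at 95%. Chance flags about 1 in 20 groups. AMY1 (Potri.002G126300) was at 81.1 TPM in replicate 3 of line 2 and at 41.1 to 46.8 TPM in the other line 2 libraries. BAM9 (Potri.008G204200) was at 344.9 TPM in control replicate 2 and at 226 to 233 TPM in the other controls. SUS6 (Potri.012G037200) was also highest in control replicate 2, at 8.68 TPM beside 3.99 to 4.58 TPM. SPS3F (Potri.017G057800) reached 17.01 TPM in control replicate 3, beside 9.93 to 10.3 TPM. SS3 (Potri.004G014100) was lowest in control replicate 4, at 22.9 TPM beside 28.9 to 29.3 TPM. In line 7, GUX1 (Potri.007G107200) was at 1.46 TPM in replicate 2 beside 0.226 to 0.403 TPM, and ISA1 (Potri.006G070800) at 6.73 TPM in replicate 3 beside 5.78 to 5.92 TPM. Each of these 7 genes stayed on its side of the threshold when any 1 library was left out.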

How the results depend on the processing

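The calls of members depended mostly on the controls and on scaling. Without control replicates 1 and 2, which leaves fewer controls, genes called fell from 13980 to 7430 for the mean of both lines. They fell from 12756 to 6885 in line 2 and from 10910 to 5013 in line 7. Members called then numbered 8 higher and 27 lower for the mean, 29 lower in line 2, and 4 higher and 16 lower in line 7. Under median ratio scaling the higher members were 21, 19 and 14 for the mean, line 2 and line 7. At a mean TPM of at least 5, where 96 members were tested, 9019, 8240 and 7087 genes were called, and 37, 34 and 29 members were lower. Leaving out 1 library gave 11206 to 14000 genes for the mean of both lines, with 8 to 15 members higher and 44 to 56 lower. In line 2 it gave 10234 to 12689 genes, 6 to 11 higher and 45 to 54 lower, and in line 7 7929 to 11316 genes, 6 to 12 higher and 27 to 45 lower. Between the lines 0 genes were called under every alternative run.

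With the replicate block, 10 members were higher and 54 lower for the mean of both lines, and 13745 genes were called. Of 12 libraries, 8 correlated best with their own number. The block added SUC2 (adjusted p = 0.0122) and removed STP1 Potri.004G033600 (0.0562) and SUS6 Potri.004G081300 (0.0635) among named members.

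Of 1186 alternative values of named members, 1108 kept direction and side of the threshold, 41 lost and 11 gained a call, and 26 changed sign, 0 of them in a called gene. Under median ratio scaling the log2 fold changes that changed sign were 4.01e-05 for BAM9, 0.0622 for ISA3 (0.0653 without control replicates 1 and 2), 0.011 for SS1, 0.0116 for SUC4 and 0.155 for sucrose phosphatase Potri.006G199800. That phosphatase was at 0.0233 without control replicates 1 and 2 and from -0.0586 to 0.0271 with single libraries left out. SPS1F Potri.018G124700 was at -0.0943 without these controls and from -0.0556 to 0.108 with single libraries left out, and SUS3 at -0.146 and from -0.231 to 0.307. Leaving out 1 library gave -0.102 to 0.307 for the invertase Potri.013G006600, -0.0136 to 0.0954 for VTE1 and -0.0361 to 0.0705 for Potri.013G071900. The cause was not tested. TPM keeps no depth, so low genes cannot be given counting errors.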
